A study of Mus musculus with 30 samples.

Results

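The nuclear genes for the subunits of the oxidative phosphorylation complexes were examined in mouse CD11b+ cells, the myeloid cells that carry the integrin alpha M chain. A gene was taken when its symbol in the array's annotation began with Nduf followed by a, b, c, s or v and a digit (complex I), was Sdha, Sdhb, Sdhc or Sdhd (complex II), or began with Uqcr (complex III), with Cox and a digit from 4 to 8 (complex IV) or with Atp5 (complex V). Each gene was read by 1 probe set, the one with the highest mean over all 30 arrays among those annotated to that gene alone. This gave 81 of the 18194 genes measured: 35 of complex I, 4 of complex II, 8 of complex III, 17 of complex IV and 17 of complex V. The complexes were assigned by name, so Ndufa4, which binds complex IV, and its relative Ndufa4l2 are counted under complex I. The mean level was not used to keep or drop a gene, and 76 of the 81 had a highest group mean above the level that 60% of all genes exceeded, log2 5.90. Cox4i2, Cox7a1, Cox7b2, Cox8b and Ndufb4 lay under it. The name patterns leave out some nuclear genes, among them Cyc1 and Cycs, the cytochromes that sit in and after complex III, and the complex I subunit Ndufab1. They also leave out the subunits encoded by mitochondrial DNA.

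Complexes I to IV form the respiratory chain of the inner mitochondrial membrane, which passes electrons from NADH and succinate to oxygen and pumps protons as it does so. Complex V, the ATP synthase, lets the protons flow back through its membrane ring and makes ATP. Most subunits are encoded in the nucleus, and complex IV has alternative subunits that differ between tissues. In myeloid cells neutrophils are known for relying largely on glycolysis, while many macrophages rely more on the respiratory chain.

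The cells were enriched with magnetic beads from 10 groups of 3 samples, and each sample was hybridised to 1 Affymetrix MOE430 2.0 array. The groups from untreated animals were spleen of healthy BALB/c mice, spleen of healthy C57BL/6 mice and fresh bone marrow of BALB/c mice. The groups from animals with tumors were spleen and tumor infiltrate of BALB/c mice with C26-GM tumors (a colon carcinoma made to release the cytokine GM-CSF), tumor infiltrate of BALB/c mice with 4T1 tumors (a mammary carcinoma), and tumor infiltrate of C57BL/6 mice with EL-4 tumors (a T cell lymphoma) or MCA203 tumors (a fibrosarcoma). BALB/c marrow cultured for 4 days with GM-CSF and IL-6 or with GM-CSF and G-CSF made up the last groups, which the series calls myeloid-derived suppressor cells together with the cells from tumor-bearing mice. The healthy spleens were the reference for the tumor groups, so each comparison of a tumor with a healthy spleen also compares different organs, and the cultures were set against fresh marrow. Sex and age of the mice were not used, and the labels do not state whether replicates came from separate mice. The p-values therefore measure only the spread between these samples, which may be technical. For the C57BL/6 healthy spleens the titles and the strain field say C57BL/6 while the source field says BALB/c, and the strain field was followed.

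Several facts of the arrays touch the results below. The spread of all values on an array (SD over probe sets, log2) was 1.96 to 1.98 on 4 of the 6 culture arrays (replicates 1 and 2 with IL-6, 1 and 3 with G-CSF), which are called the narrow arrays here. It was 2.23 to 2.26 on the other 2, called wide, and 2.16 to 2.21 on the marrow arrays. The 3′ less 5′ signal of actin, a sign of RNA degradation, was 2.42 on the third C26-GM tumor array, 0.66 on the third C26-GM spleen array, 0.33 to 0.68 on the narrow culture arrays and 0.01 to 0.58 on the 24 others. Xist lay at 5.15 to 6.47 on the 6 C26-GM arrays and at 10.06 to 11.12 on the 24 others. Group means of Itgam, which encodes CD11b, lay between 9.50 and 10.82. The arrays did not share one distribution as deposited, with medians over probe sets of 4.85 to 5.15. Centring each array on 11 housekeeping genes moved the median of all genes by -0.33 to 0.12 log2 across the 14 comparisons, and these housekeeping genes were themselves not level, with 5 of the 11 rising and 1 falling between fresh marrow and the IL-6 culture. Total counts of the subunit genes are therefore given under both scalings, and counts of a complex or role where the other scaling turned their direction. In bulk samples fewer cells of a type and less RNA per cell cannot be told apart.

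Promoter windows from RefSeq (GRCm38.p6, 250 bases before to 50 bases after the annotated start) were found for 66 of the 81 genes, 71 windows in all. Letter patterns known for factors that act on respiratory genes or in hypoxia were searched on both strands: GCGCA, any base N and then GCGC for NRF1, CCGGAA for the ETS family (which includes GABP), AAGATGGC for YY1 and ACGTG for HIF. The NRF1 letters were in 22.5% of the subunit windows and in 4.6% of the 32851 windows of all genes, the ETS letters in 38.0% and 14.9%, the YY1 letters in 12.7% and 2.75%, and the HIF letters in 26.8% and 19.6%. The subunit windows were also richer in G and C, with a median of 58.3% against 52.7%. The windows of 5 genes to which the results below return are shown, with matches to any of these patterns in capitals. Atp5o, Atp5g2 and Ndufa9 were among the subunits that differed most between tumors, and Cox6b2 and Cox7a1 had the widest ranges of all; the 5 were chosen after their values were seen.
Atp5o (GRCm38.p6 chr16:91931581-91931880, minus strand): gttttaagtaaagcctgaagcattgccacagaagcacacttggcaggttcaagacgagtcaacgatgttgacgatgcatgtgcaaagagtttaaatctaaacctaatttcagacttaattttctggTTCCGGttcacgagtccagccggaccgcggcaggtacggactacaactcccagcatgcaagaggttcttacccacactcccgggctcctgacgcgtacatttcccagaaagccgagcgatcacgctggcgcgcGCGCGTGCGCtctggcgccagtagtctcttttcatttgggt
Atp5g2 (GRCm38.p6 chr15:102670998-102671297, minus strand): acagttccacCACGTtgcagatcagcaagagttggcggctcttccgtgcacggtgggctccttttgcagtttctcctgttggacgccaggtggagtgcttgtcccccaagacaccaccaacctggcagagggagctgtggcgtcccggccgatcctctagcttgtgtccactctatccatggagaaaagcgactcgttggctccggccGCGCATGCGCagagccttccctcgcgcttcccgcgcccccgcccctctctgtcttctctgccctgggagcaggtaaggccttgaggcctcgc
Ndufa9 (GRCm38.p6 chr6:126849095-126849394, minus strand): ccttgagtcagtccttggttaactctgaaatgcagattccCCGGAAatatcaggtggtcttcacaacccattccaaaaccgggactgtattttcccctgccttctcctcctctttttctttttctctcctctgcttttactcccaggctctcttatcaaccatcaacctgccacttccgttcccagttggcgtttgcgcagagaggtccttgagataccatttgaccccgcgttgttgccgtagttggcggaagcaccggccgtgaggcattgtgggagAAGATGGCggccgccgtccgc
Cox6b2 (GRCm38.p6 chr7:4753045-4753344, minus strand): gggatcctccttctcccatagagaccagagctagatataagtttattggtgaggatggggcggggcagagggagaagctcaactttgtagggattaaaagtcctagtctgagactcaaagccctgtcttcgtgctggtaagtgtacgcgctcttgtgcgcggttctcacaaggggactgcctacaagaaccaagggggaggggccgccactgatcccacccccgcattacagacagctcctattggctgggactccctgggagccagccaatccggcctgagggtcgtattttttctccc
Cox7a1 (GRCm38.p6 chr7:30183921-30184220, plus strand): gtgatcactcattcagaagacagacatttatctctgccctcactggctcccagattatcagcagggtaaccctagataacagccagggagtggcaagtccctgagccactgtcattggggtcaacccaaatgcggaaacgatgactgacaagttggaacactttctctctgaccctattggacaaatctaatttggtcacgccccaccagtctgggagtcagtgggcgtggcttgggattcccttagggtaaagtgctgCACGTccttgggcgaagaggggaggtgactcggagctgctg
The Atp5o window holds the NRF1 and ETS letters, the Atp5g2 window the NRF1 and HIF letters, and the Ndufa9 window the ETS and YY1 letters. The Cox7a1 window holds only the HIF letters, and the Cox6b2 window none of these patterns. A match is only a match of letters. Among the 66 genes, those with the NRF1 letters differed between 4T1 and C26-GM tumors by a median of 0.35 (15 genes) and those without by 0.23 (51 genes). Between MCA203 tumor and healthy spleen the medians were 0.33 and 0.41, so the order was the other way round.

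The level of the whole set was summarised on each array as the mean, over the 81 genes, of the deviation from that gene's mean over 30 arrays (log2). It was lowest in healthy spleen, at -0.21 ± 0.04 (SD, n = 3) in BALB/c and -0.18 ± 0.09 (SD, n = 3) in C57BL/6. In C26-GM tumor it was -0.15 ± 0.02 and in fresh marrow -0.14 ± 0.03 (SD, n = 3 each). It was highest in MCA203 tumor at 0.19 ± 0.01, followed by the IL-6 culture at 0.13 ± 0.20, 4T1 tumor at 0.13 ± 0.01, EL-4 tumor at 0.12 ± 0.08, the G-CSF culture at 0.08 ± 0.13 and C26-GM spleen at 0.04 ± 0.15 (SD, n = 3 each). The 9 arrays of the 4T1, EL-4 and MCA203 tumors ran from 0.03 to 0.20 and lay above all arrays of healthy spleen, marrow and C26-GM tumor, the highest of which was at -0.10. Neighbours in this order, such as 4T1 tumor and both cultures, did not differ beyond their spread. The housekeeping genes followed a similar order, from -0.29 in marrow and -0.17 in BALB/c spleen to 0.23 in EL-4 tumor, and on the wide culture arrays they reached 0.43 and 0.39.

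**Figure D1:**
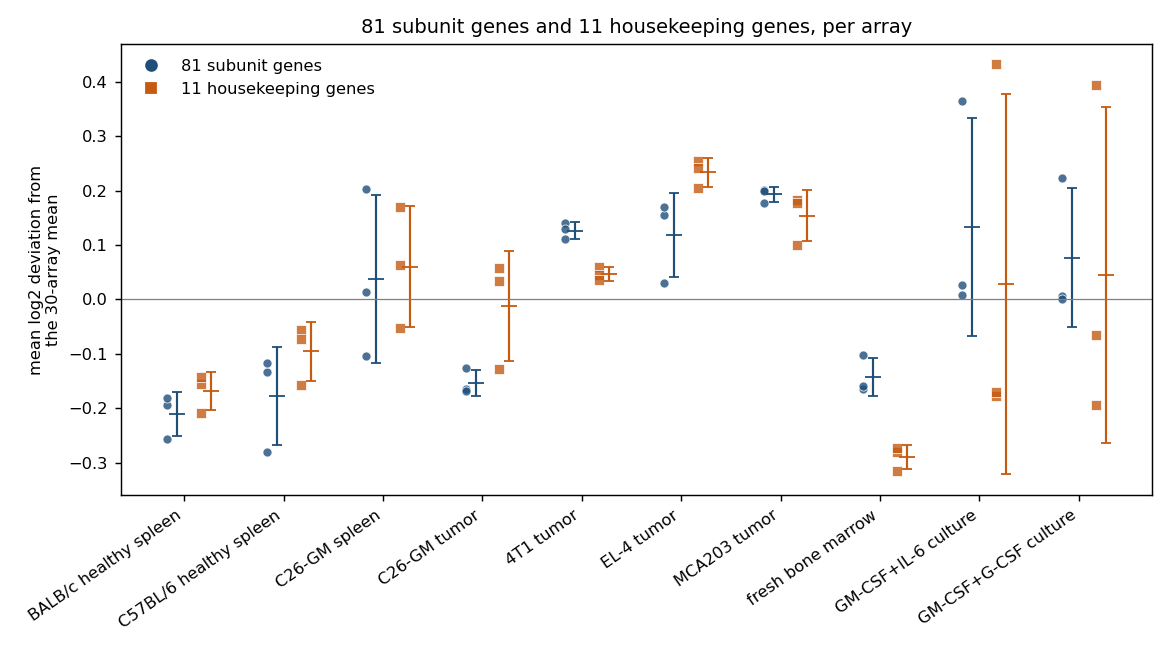
Mean log2 deviation from the 30-array mean for the 81 subunit genes (circles) and the 11 housekeeping genes (squares) on each array, by group, with group mean and SD beside the points (n = 3). The subunit genes lie lowest in the healthy spleens (group means -0.21 and -0.18) and highest in MCA203 tumor (0.19), and the housekeeping genes are also low in marrow (-0.29) and high in EL-4 tumor (0.23).

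Members moved together only in part. The correlation of a gene with the mean of the other 80 over the 30 arrays, which share one deposited table, had a median of 0.57. It was over 0.5 for 50 genes and highest for Ndufv1, the subunit that binds NADH, and Atp5o, the stalk subunit known as OSCP, at 0.87 each. It was below 0 for 6 genes, the lowest being Cox6b2 (-0.50) and Cox7a2l (-0.23). The members were also grouped by textbook role, written down after the group means had been seen: 21 core subunits (catalytic, redox-active or rotor parts and their like), 52 accessory subunits and 8 tissue isoforms. Stalk subunits of complex V were divided, with Atp5o and Atp5pb counted as core and Atp5h and Atp5j as accessory. The median correlation was 0.63 for core, 0.57 for accessory and 0.06 for the tissue isoforms. MCA203 tumor had the highest group mean for 26 genes and BALB/c healthy spleen for 0, while the lowest group mean was in C57BL/6 healthy spleen for 20 genes, in C26-GM tumor for 17 and in BALB/c healthy spleen for 13. The widest ranges of group means belonged to Cox6b2 (3.83), Cox7a1 (2.00) and Ndufa12 (1.84), and the narrowest to Atp5e (0.43).

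**Figure D2:**
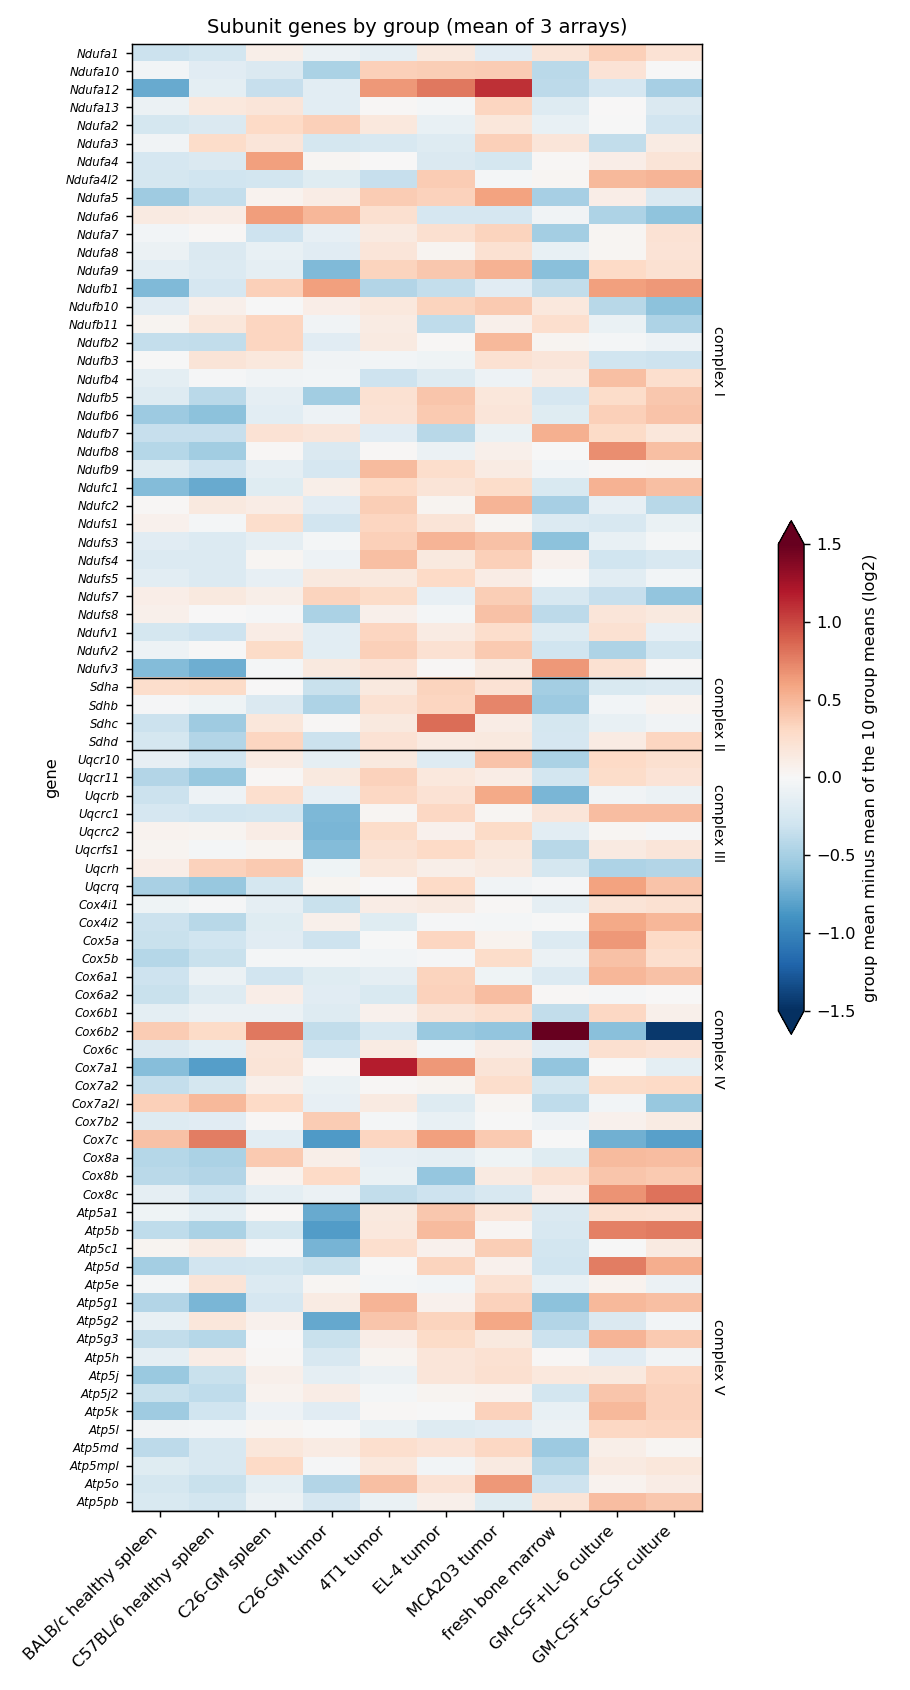
Group mean of each of the 81 genes less the mean of its 10 group means (log2, colour, saturating at 1.5), with genes sorted by complex and groups in columns. Cox6b2 is high in fresh marrow and low in both cultures, Ndufb1 is high in the groups with C26-GM tumors and in both cultures, and Uqcrc2, Uqcrfs1, Atp5a1 and Atp5g2 are low in C26-GM tumor.

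The tumors other than C26-GM had higher subunit levels than healthy spleen of the same strain on the deposited scale. Of the 81 genes, 25 rose and 1 fell in 4T1 tumor (median difference 0.31 log2), 31 rose and 4 fell in EL-4 tumor (median 0.31) and 37 rose and 2 fell in MCA203 tumor (median 0.38). Over all genes 14.2% rose and 11.2% fell in 4T1 tumor, 15.2% and 9.93% in EL-4 tumor, and 13.2% and 10.7% in MCA203 tumor, with medians of -0.01, 0.02 and 0.14. A gene was called when limma's moderated test gave an adjusted p under 0.05 (Benjamini-Hochberg over all 18194 genes). With housekeeping centring the subunit counts were 13 rises and 3 falls in 4T1 tumor (all genes 10.6% and 17.9%), 17 and 5 in MCA203 tumor (7.97% and 19.1%), and 12 and 13 in EL-4 tumor (8.26% and 22.6%), where the median was -0.01. In EL-4 tumor rises therefore exceeded falls on the deposited scale and not with housekeeping centring. Without the second C57BL/6 spleen array 22 subunits were called in EL-4 tumor and 22 in MCA203 tumor, and without the second BALB/c spleen array, or the first or the third 4T1 array, 16, 17 and 17 were called in 4T1 tumor.

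Complex I contributed 11 rises and 0 falls in 4T1 tumor, 13 and 2 in EL-4 tumor (5 and 8 with housekeeping centring) and 16 and 0 in MCA203 tumor. Ndufa12, an accessory subunit of the hydrophilic arm, was at 8.83, 8.90 and 8.77 log2 in BALB/c spleen and 10.24, 10.32 and 10.16 in 4T1 tumor. It was at 9.48, 9.42 and 9.41 in C57BL/6 spleen, 10.47, 10.27 and 10.41 in EL-4 tumor, and 10.68, 10.79 and 10.56 in MCA203 tumor. The 9 arrays of these tumors (10.16 to 10.79) did not overlap the 21 others (8.69 to 9.77). Lack of overlap, here and below, was seen in the data and not tested, and its share over all genes was not counted. Sdha in marrow and Cox7a2l in healthy spleen were looked at over the whole series too, and both overlapped the other arrays. The difference was 1.41 ± 0.20 (SE, adjusted p 3.48e-06) in 4T1 tumor and 1.24 ± 0.20 (adjusted p 2.67e-05) in MCA203 tumor. The probe sets of Ndufa12 disagreed on the healthy strains, from -0.67 to 0.61 for C57BL/6 less BALB/c spleen, and a weaker probe set moved by 3.11 in 4T1 tumor.

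Ndufc1, a small accessory subunit of the membrane arm, and Ndufv3, an accessory subunit beside the NADH site, were lowest in healthy spleen. Ndufc1 ran from 8.62 to 8.92 on the 6 healthy spleen arrays and from 9.19 to 10.34 on the 24 others. Ndufv3 ran from 9.65 to 9.93 on the 6 and from 10.41 to 11.18 on the 24. For both genes no array outside healthy spleen reached down to it. Ndufc1 was higher by 0.95 ± 0.16 in 4T1 tumor (SE, adjusted p 2.83e-05), 0.96 ± 0.16 in EL-4 tumor (adjusted p 3.17e-05) and 1.04 ± 0.16 in MCA203 tumor (adjusted p 9.88e-06), calls that held with housekeeping centring. Ndufv1 was higher by 0.59 ± 0.17 in 4T1 tumor (adjusted p 0.0118) and 0.57 ± 0.17 in MCA203 tumor (adjusted p 0.0176; lost without the second C57BL/6 spleen array or the first or second MCA203 array, at 0.51 to 0.54), and by 0.43 in EL-4 tumor, where adjusted p was 0.0726. Ndufa5, in the matrix arm, was higher by 0.91 ± 0.30 in 4T1 tumor (adjusted p 0.0265), a call lost when any 1 of the 6 arrays was left out. Ndufs1, the largest iron-sulfur subunit, was not called in these 3 tumors, with differences of 0.06 to 0.27.

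Of the 4 subunits of complex II, the enzyme that also serves the citric acid cycle, 0 were called in 4T1 tumor and 3 rose in both EL-4 and MCA203 tumors. Sdhc, a membrane anchor, was at 8.61, 8.26 and 8.33 in C57BL/6 spleen and at 9.77, 9.69 and 9.82 in EL-4 tumor. The EL-4 arrays were above all 27 others, the highest of which was at 9.51. The difference was 1.36 ± 0.22 (SE, adjusted p 3.23e-05), and it was 0.64 ± 0.22 in MCA203 tumor (adjusted p 0.0354). Sdhb, the iron-sulfur subunit, was at 10.36, 9.99 and 10.45 in C57BL/6 spleen, 10.66, 10.53 and 10.78 in EL-4 tumor and 11.12, 10.91 and 11.16 in MCA203 tumor, a difference of 0.80 ± 0.14 (SE, adjusted p 8.23e-05) for the last, while the EL-4 call was lost with housekeeping centring, at 0.06. Sdha, the flavoprotein, differed by -0.11 to 0.06 in the same comparisons and was not called.

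In complex III 3 of 8 genes rose in 4T1 tumor, 3 in EL-4 tumor and 4 in MCA203 tumor, and 0 fell. Uqcrc1, a large subunit of the matrix side, was at 9.66, 9.50 and 9.57 in C57BL/6 spleen and at 10.08, 10.30 and 10.19 in EL-4 tumor. The groups did not overlap, and the difference was 0.61 ± 0.15 (SE, adjusted p 0.00207; with housekeeping centring 0.29, not called). In 4T1 and MCA203 tumor it was 0.28 and 0.33, with adjusted p of 0.178 and 0.103.

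Complex IV was divided between its isoforms. Of its 17 genes 2 rose and 1 fell in 4T1 tumor, 4 rose and 2 fell in EL-4 tumor, and 6 rose and 2 fell in MCA203 tumor, which became 1 and 1, 1 and 2, and 1 and 2 with housekeeping centring. Cox7a1, the isoform of heart and skeletal muscle, was at 3.91, 3.61 and 3.60 in BALB/c spleen and at 5.47, 5.54 and 5.57 in 4T1 tumor. It was at 3.53, 3.55 and 3.49 in C57BL/6 spleen, 4.89, 5.22 and 4.90 in EL-4 tumor, and 4.56, 4.33 and 4.76 in MCA203 tumor. The 4T1 arrays were above the 27 others, although the gene's highest group mean, 5.53, was under the level filter. The differences were 1.82 ± 0.25 (SE, adjusted p 1.82e-06), 1.48 ± 0.25 (adjusted p 4.36e-05) and 1.02 ± 0.25 (adjusted p 0.00263), and all 3 calls held with housekeeping centring.

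Cox6b2, the isoform best known from testis, moved the other way. It was at 6.15, 5.95 and 5.92 in C57BL/6 spleen, 5.46, 4.87 and 5.16 in EL-4 tumor and 5.03, 5.15 and 5.20 in MCA203 tumor. The tumor arrays did not overlap the spleen arrays, and the gene fell by 0.84 ± 0.23 (SE, adjusted p 0.00665) and 0.88 ± 0.23 (adjusted p 0.00486); the first call was lost without the second EL-4 array, at -0.70. In 4T1 tumor it was 0.62 ± 0.23 lower (adjusted p 0.0487), a call lost when any 1 array was left out. Cox7a2l, a factor that joins complexes III and IV into supercomplexes, was at 10.96, 11.16 and 11.02 in C57BL/6 spleen and 10.51, 10.24 and 10.38 in EL-4 tumor, and it fell by 0.67 ± 0.13 there (adjusted p 0.000342) and by 0.45 ± 0.13 in MCA203 tumor (adjusted p 0.0124). The MCA203 call was lost without the second C57BL/6 spleen array (-0.40) or the second MCA203 array (-0.42). Cox4i1, the common form of subunit 4, differed by 0.03 to 0.18 in these 3 tumors and was not called.

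In complex V 9 of 17 genes rose in 4T1 tumor, 8 in EL-4 tumor and 8 in MCA203 tumor, with 0 falls. Atp5o was at 10.24, 9.77 and 10.23 in C57BL/6 spleen and at 11.08, 11.07 and 11.02 in MCA203 tumor, a difference of 0.98 ± 0.16 (SE, adjusted p 2.43e-05) that held with housekeeping centring. Atp5b, the catalytic beta subunit, was at 11.18, 10.79 and 10.97 in C57BL/6 spleen and 11.95, 11.94 and 11.91 in EL-4 tumor, a difference of 0.95 ± 0.19 (adjusted p 0.000391). In both cases the groups did not overlap. Atp5g1, Atp5g2 and Atp5g3 encode the same mature ring subunit c from separate genes. Atp5g1 was at 9.02, 8.76 and 8.93 in BALB/c spleen and 9.83, 9.82 and 9.89 in 4T1 tumor (difference 0.94 ± 0.20, adjusted p 0.000531), and it was higher by 1.04 ± 0.20 in MCA203 tumor (adjusted p 0.000207). Its only other probe set, at a mean of 2.62 near the bottom of the scale, gave 0.32 and 0.21. Atp5g3 rose by 0.47 ± 0.10 in 4T1 tumor (adjusted p 0.000807), 0.71 ± 0.10 in EL-4 tumor (adjusted p 5.23e-06) and 0.58 ± 0.10 in MCA203 tumor (adjusted p 9.14e-05). With housekeeping centring the first and the last of these were 0.25 and 0.33 and not called. Atp5g2 rose in 4T1 tumor by 0.52 ± 0.17 (adjusted p 0.0273), a call lost with housekeeping centring (0.31) and without any 1 array (0.50 to 0.55), and it was not called in EL-4 and MCA203 tumor, at 0.17 and 0.41.

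**Figure D3:**
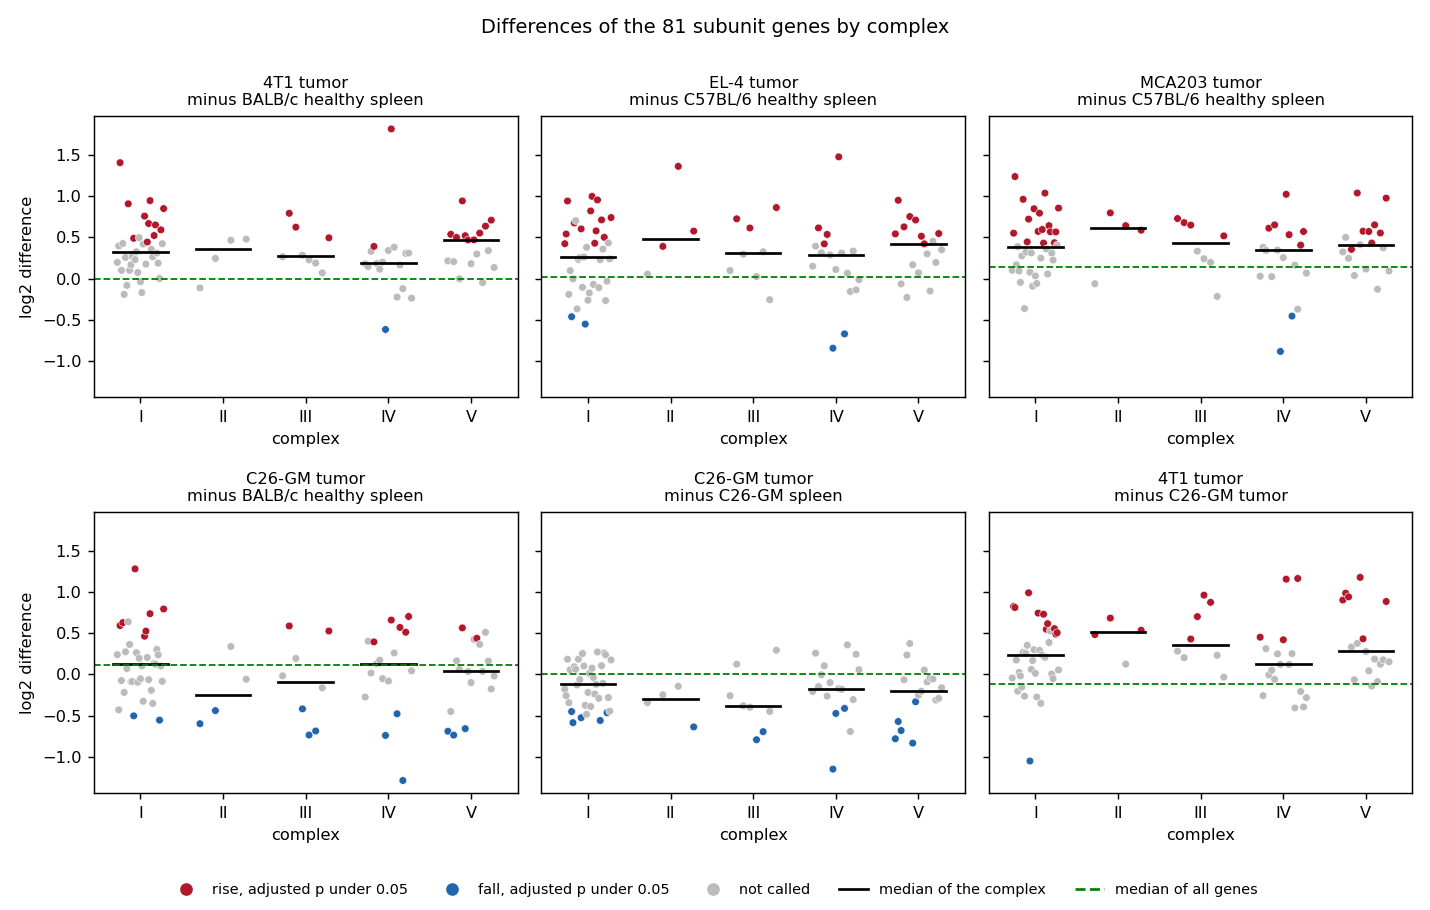
Log2 difference of each of the 81 genes (points, by complex I to V) in 6 comparisons, with called rises in red, called falls in blue, the median of each complex as a black bar and the median of all genes as a green dashed line. On the deposited scale rises prevail in the 4T1, EL-4 and MCA203 tumors against healthy spleen (25, 31 and 37 rises), while C26-GM tumor has 16 rises and 13 falls; with housekeeping centring EL-4 tumor has 12 rises and 13 falls.

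On the deposited scale only rises were called in C26-GM spleen, while C26-GM tumor had both rises and falls. In C26-GM spleen 17 of 81 subunits rose and 0 fell against healthy BALB/c spleen (median 0.23), where 6.86% of all genes rose and 7.57% fell (median 0.09). With housekeeping centring 6 rose and 6 fell, the median was 0.00, and 3.74% and 16.5% of all genes were called. The count moved with the arrays: it was 10, 5 and 9 without BALB/c spleen array 1, 2 and 3, and 8 without the second C26-GM spleen array. The rises were 8 of 35 in complex I, 1 of 4 in complex II, 1 of 8 in complex III, 3 of 17 in complex IV and 4 of 17 in complex V, and 14 of them were accessory subunits. With housekeeping centring 0 rose and 2 fell in complex II. Xist lay at 5.15 to 6.47 on the C26-GM arrays and at 10.06 to 11.12 on those outside C26-GM. Where a C26-GM group is set against healthy spleen, this difference cannot be told apart from that of the tumor.

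Ndufb1, an accessory subunit of the membrane arm, was at 6.72, 6.70 and 6.74 in healthy BALB/c spleen, 7.57, 8.07 and 7.61 in C26-GM spleen, and 8.0, 8.24 and 7.77 in C26-GM tumor. It rose by 1.03 ± 0.18 in spleen (SE, adjusted p 0.000144) and by 1.28 ± 0.18 in tumor (adjusted p 2.92e-06). Across the series the 12 arrays of the 4 groups whose labels name GM-CSF (C26-GM spleen and tumor, and both cultures) ran from 7.57 to 8.53 and the 18 others from 6.70 to 7.36, a split seen in the data and not tested. In 4T1 tumor the gene was at 6.95, 7.02 and 6.88. It fell by 1.05 ± 0.18 from C26-GM to 4T1 tumor (adjusted p 4.75e-05).

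Among the other rises in C26-GM spleen, Cox8a, the common form of the smallest complex IV subunit, went from 10.17, 10.04 and 10.14 to 10.78, 10.99 and 11.02, without overlap (0.82 ± 0.13 SE, adjusted p 5.4e-05). Ndufa4, a subunit that binds complex IV despite its name, went from 9.48, 9.26 and 9.47 to 9.96, 10.88 and 9.95, with the second array far above the others (0.86 ± 0.20, adjusted p 0.00304). Cox7a1 was at 4.06, 4.60 and 4.97, a difference of 0.83 ± 0.25 (adjusted p 0.0216) that was not called without the second or the third BALB/c spleen array or the second or the third C26-GM spleen array (0.62 to 0.80). Ndufb2 was higher by 0.68 ± 0.22 (adjusted p 0.0363), a call that was lost without any 1 of the BALB/c spleen arrays or the second C26-GM spleen array (0.46 to 0.75), while its other probe sets gave 0.51 (30-array mean 8.73) and -0.18 (30-array mean 4.75).

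In C26-GM tumor 16 subunits rose and 13 fell against healthy BALB/c spleen (median 0.07, beside 0.11 for all genes, of which 12.7% rose and 14.9% fell). With housekeeping centring 8 rose and 20 fell and the median was -0.08, with 7.37% and 21.9% of all genes called. Without the third C26-GM tumor array, the one with the actin value of 2.42, 16 were called, and without the third BALB/c spleen array 19. By role, and without a test of the difference between roles, 1 of the 21 core subunits rose and 7 fell on the deposited scale, and among the 52 accessory subunits 12 rose and 5 fell, while with housekeeping centring 7 accessory subunits rose and 9 fell. Without the third arrays of both C26-GM groups 1 core subunit rose and 3 fell (all genes 10.6% and 12.5%). On the third tumor array itself the core subunits averaged -0.47 and the accessory subunits -0.01 from the 30-array mean.

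Ndufv3 and Ndufc1 were among the rises in C26-GM tumor, by 0.80 ± 0.12 (SE, adjusted p 1.63e-05) and 0.74 ± 0.16 (adjusted p 0.00064). Cox8b, another muscle isoform, rose by 0.70 ± 0.18 (adjusted p 0.00405), and the call was lost with housekeeping centring (0.55). Cox7c, a small complex IV subunit, was at 6.32, 6.44 and 6.37 in healthy spleen and at 4.95, 4.61 and 5.70 in C26-GM tumor, a fall of 1.29 ± 0.30 (adjusted p 0.00174). Its probe sets were weak, with 30-array means of 5.94 and 4.35, and both fell by a similar amount (-1.29 and -1.26). Uqcrc2, the partner of Uqcrc1 in complex III, was at 9.58, 9.60 and 9.71 in healthy spleen and 9.31, 8.90 and 8.48 in C26-GM tumor (-0.74 ± 0.17, adjusted p 0.00191), and its other probe set gave -0.10. Atp5c1, the central stalk subunit, fell by 0.74 ± 0.15 (adjusted p 0.000578), and a weaker probe set gave -0.12.

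Atp5a1, the alpha subunit of the ATP synthase head, was at 11.21, 11.21 and 11.35 in healthy BALB/c spleen, 11.33, 11.37 and 11.35 in C26-GM spleen, and 10.92, 10.75 and 10.04 in C26-GM tumor. The 3 C26-GM tumor arrays were below the 27 others, the lowest of which was at 11.05. The gene fell by 0.69 ± 0.18 against healthy spleen (SE, adjusted p 0.0047), a call lost without the third C26-GM tumor array, at -0.43. Sdha fell by 0.60 ± 0.16 (adjusted p 0.00463; without the third C26-GM tumor array -0.41, not called) and Uqcrfs1, the Rieske iron-sulfur protein of complex III, by 0.69 ± 0.17 (adjusted p 0.00246).

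Between tumor and spleen of mice with C26-GM tumors, 0 subunits rose and 16 fell (median -0.18, beside 5.63% rises, 8.55% falls and a median of 0.00 over all genes). Of the falls 9 were among the 21 core subunits and 6 among the 52 accessory subunits. With housekeeping centring 2 rose and 12 fell (all genes 7.24% and 9.22%). The count was 8 without the third arrays of both groups and 6 without the second C26-GM spleen array, and a limma fit of these 6 arrays alone called 0. Atp5g2 was at 9.98, 10.61 and 10.39 in C26-GM spleen and 9.77, 9.61 and 9.11 in C26-GM tumor, without overlap (-0.83 ± 0.17 SE, adjusted p 0.0012). Cox6b2 fell by 1.15 ± 0.23 (adjusted p 0.000711), from 7.16, 6.40 and 5.94 to 5.66, 5.35 and 5.05. Uqcrc2 fell by 0.79 ± 0.17 (adjusted p 0.00185). Atp5a1 fell by 0.78 ± 0.18 (adjusted p 0.00303) and Uqcrfs1 by 0.69 ± 0.17 (adjusted p 0.00428), calls that were lost without the third arrays of both groups, at -0.52 and -0.49. Markers of cell types, myeloid ones included, moved in the same comparison. Of 5 primary granule genes 5 fell, from summed linear levels of 3085 to 7815 in C26-GM spleen to 300.4 to 375.7 in tumor. Of 13 monocyte and macrophage genes 1 rose and 8 fell, from sums of 21810 to 23050 to sums of 12290 to 16950, and 3 of 8 dendritic cell and 4 of 8 B cell genes fell. Their part in the subunit differences was not tested.

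The infiltrates of the BALB/c tumors were compared directly, within one strain and one kind of tissue. Xist, the RNA of the inactive X chromosome, lay at 5.15 to 6.47 on the C26-GM tumor arrays and at 10.44 to 10.55 on the 4T1 arrays, and its difference cannot be told apart from that of the tumor lines. From C26-GM to 4T1 tumor 27 of 81 subunits rose and 1 fell (median 0.25), beside 19.5% and 14.3% of all genes and a median of -0.11. The counts were 26 and 1 with housekeeping centring (all genes 19.5% and 12.8%) and 26 and 1 without the third C26-GM arrays. The rises took in 14 of the 21 core subunits, with a median of 0.51, and 12 of the 52 accessory subunits. Without the third C26-GM arrays 10 core subunits rose. By complex they were 10 of 35 in complex I, 3 of 4 in II, 4 of 8 in III, 4 of 17 in IV and 6 of 17 in V.

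The largest rise was that of Atp5g2, from 9.77, 9.61 and 9.11 in C26-GM tumor to 10.71, 10.68 and 10.63 in 4T1 tumor (1.18 ± 0.17 SE, adjusted p 7.45e-06). Ndufa9, an accessory subunit near the quinone site of complex I, went from 9.08, 9.15 and 8.63 to 10.03, 9.95 and 9.86 (0.99 ± 0.16, adjusted p 3.01e-05). Atp5b went from 11.10, 10.90 and 9.86 to 11.65, 11.59 and 11.60 (0.99 ± 0.19, adjusted p 0.000217). In each case the lowest value was that of the third C26-GM tumor array, and the groups did not overlap. Cox7c and Cox7a1 rose by 1.17 ± 0.30 (adjusted p 0.00364) and 1.16 ± 0.25 (adjusted p 0.000634).

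Other subunits rose as well. They included Uqcrc2 by 0.96 ± 0.17 (adjusted p 9.33e-05), Atp5c1 by 0.94 ± 0.15 (adjusted p 2.78e-05), Atp5a1 by 0.90 ± 0.18 (adjusted p 0.000295), Uqcrfs1 by 0.88 ± 0.17 (adjusted p 0.000174), Uqcrc1 by 0.70 ± 0.15 (adjusted p 0.000455) and Sdhb by 0.68 ± 0.14 (adjusted p 0.000402). The only other probe set of Atp5c1, a weaker one (30-array mean 5.74), gave -0.36. Ndufs1 rose by 0.62 ± 0.18 (adjusted p 0.00872), Ndufv1 by 0.49 ± 0.17 (adjusted p 0.0318), Sdha by 0.48 ± 0.16 (adjusted p 0.0177) and Cox4i1 by 0.45 ± 0.11 (adjusted p 0.00303). The Ndufv1 and Sdha calls were lost without the third C26-GM tumor array (0.43 and 0.30) and without several other single arrays, the Ndufs1 call without the third arrays of both C26-GM groups (0.53), and the Cox4i1 call with housekeeping centring (0.39). Cyc1, the cytochrome c1 of complex III that the name patterns leave out, ran from 9.04 to 9.19 in C26-GM tumor and from 9.92 to 10.11 in 4T1 tumor (0.91 ± 0.12, adjusted p 2.2e-06).

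Markers of cell types, myeloid ones included, moved in the same comparison. Of 13 monocyte and macrophage genes 10 rose and 0 fell from C26-GM to 4T1 tumor (median 1.91), with summed linear levels of 12290 to 16950 in C26-GM tumor and 45450 to 51270 in 4T1 tumor. Of 11 neutrophil granule genes 2 rose and 7 fell, from sums of 54880 to 70600 to sums of 26650 to 36960. Of 8 epithelial genes 5 rose, from sums of 964.4 to 1325 to sums of 3707 to 5770, and 5 of 9 fibroblast genes rose. Their part in the subunit differences was not tested.

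**Figure D4:**
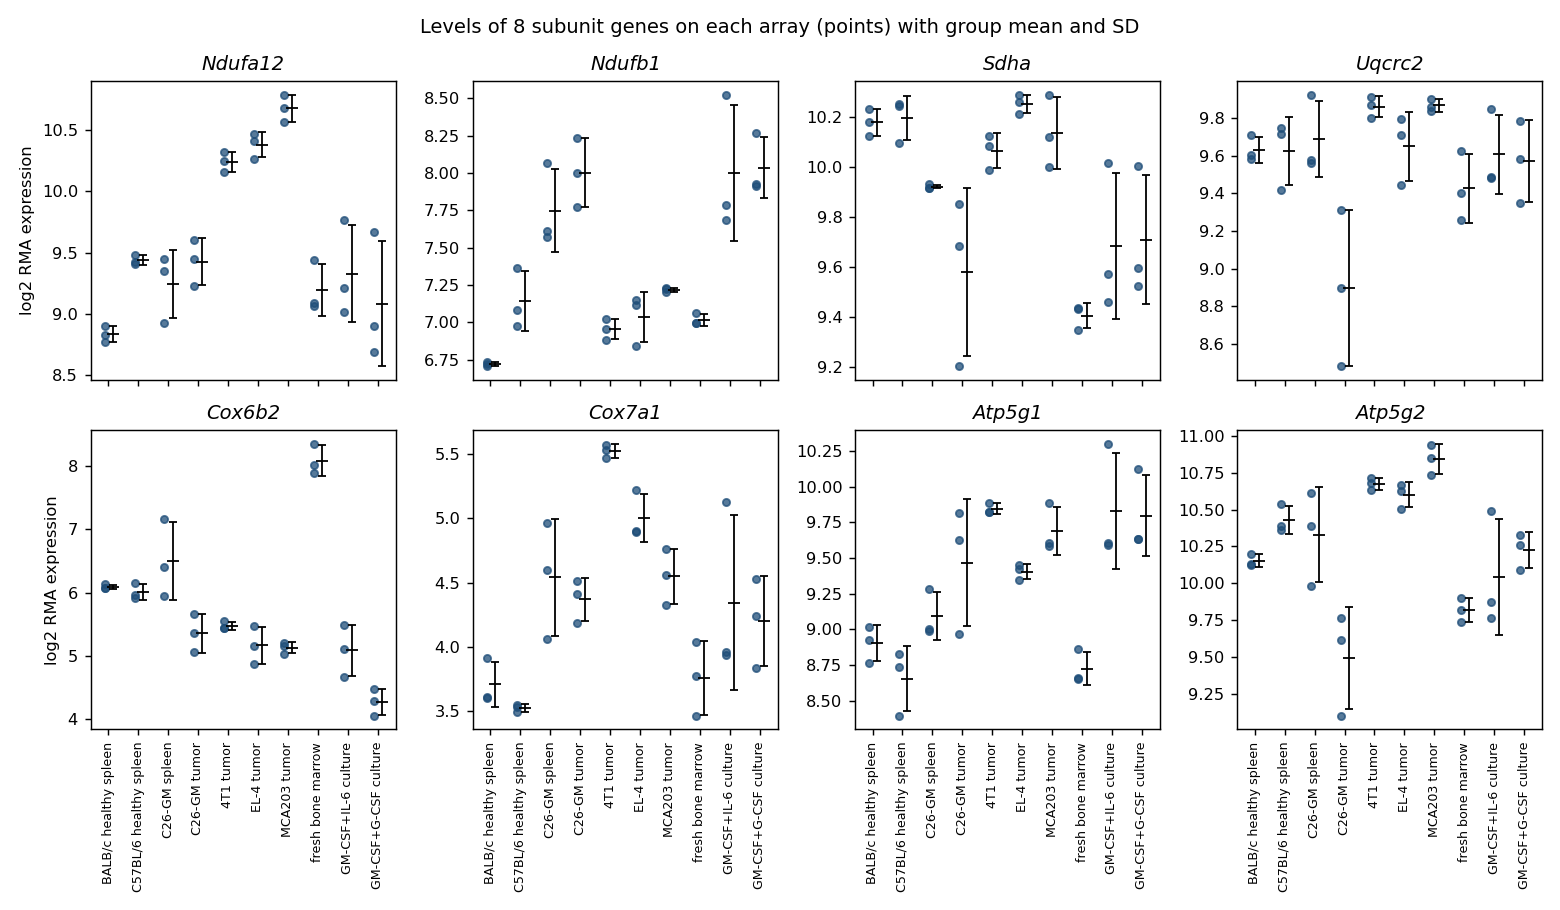
Log2 level of 8 subunit genes on each array (points, 3 per group) with group mean and SD. Ndufa12 is highest in the 4T1, EL-4 and MCA203 tumors (10.16 to 10.79), Ndufb1 in the 4 groups whose labels name GM-CSF (7.57 to 8.53), Cox6b2 in fresh marrow (7.89 to 8.36) and Cox7a1 in 4T1 tumor (5.47 to 5.57), and Atp5g2 and Uqcrc2 are low in C26-GM tumor.

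Few subunits were called between the C57BL/6 tumors. From MCA203 to EL-4 tumor 2 subunits rose and 5 fell (median -0.09), beside 8.74% and 6.27% of all genes, and with housekeeping centring 1 rose and 12 fell (median -0.17, all genes 7.73% and 8.05%). Sdhc was higher in EL-4 tumor by 0.72 ± 0.22 (SE, adjusted p 0.0283), a call lost without any 1 array of either tumor except the third MCA203 array (0.63 to 0.75), and Cox6a1 by 0.40 ± 0.11 (adjusted p 0.0124), a call lost without the third EL-4 array (0.37) and with housekeeping centring (0.32). Cox6a1 is the common form of subunit 6a, and its other probe set (30-array mean 10.89) gave -0.01. Uqcr10, a small complex III subunit, was at 9.85, 9.72 and 9.96 in EL-4 tumor and 10.44, 10.36 and 10.62 in MCA203 tumor, without overlap (-0.63 ± 0.14, adjusted p 0.00196), and a weaker probe set gave -0.38. Cox8b was lower in EL-4 tumor by 0.71 ± 0.18 (adjusted p 0.00765), a call lost without the third MCA203 array, at -0.51. Ndufa3 was lower by 0.55 ± 0.13 (adjusted p 0.00375). Ndufs8 (-0.47, adjusted p 0.0383) and Ndufb11 (-0.46, adjusted p 0.045) completed the falls. These calls were lost without most single arrays: 5 of 6 for Ndufs8 (-0.50 to -0.43) and 6 of 6 for Ndufb11 (-0.53 to -0.38). The other probe sets of Ndufb11 gave -0.03 (30-array mean 10.35) and -0.34 (30-array mean 10.53).

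Between the healthy spleens of the strains 0 subunits were called by limma (median difference -0.00), beside 1.3% rises and 1.25% falls over all genes, and 4 of the 81 had an unadjusted p under 0.05. The mean effect of the C57BL/6 tumors (EL-4 and MCA203 less C57BL/6 spleen) was set against that of the BALB/c tumors (C26-GM and 4T1 less BALB/c spleen). It was higher for 2 subunits and lower for 1 (median 0.11), beside 4.68% and 3.17% of all genes, and for 4 and 2 with housekeeping centring. Sdhb and Ndufa9 were the higher ones and Ndufb1 the lower one. Strain and tumor line cannot be told apart in this difference, and each effect also compares tumor with spleen. Xist differed within the BALB/c effect as well, at 5.15 to 6.47 on the C26-GM arrays and 10.06 to 11.12 on those outside C26-GM. It cannot be told apart from the C26-GM line.

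Between healthy BALB/c spleen and fresh marrow 12 subunits rose and 8 fell (median 0.08), shares near or below those of all genes (13.8% rises, 15.1% falls, median 0.09). With housekeeping centring 18 rose and 5 fell (all genes 17% and 13.8%). The number called was 12 without the first BALB/c spleen or second marrow array and 13 without the second BALB/c spleen or the third marrow array. Cox6b2 was at 6.13, 6.08 and 6.07 in spleen and 8.03, 7.89 and 8.36 in marrow. The marrow arrays were above all 27 others, the highest of which was at 7.16, in C26-GM spleen, and the rise was 2.00 ± 0.23 (SE, adjusted p 9.76e-08). Ndufv3 was at 9.93, 9.73 and 9.82 in spleen and 11.14, 11.06 and 11.18 in marrow, again above the 27 others (1.30 ± 0.12, adjusted p 4.67e-09). Ndufb7, an accessory subunit on the outer face of complex I, rose by 0.89 ± 0.16 (adjusted p 8.44e-05), and Atp5j, coupling factor 6 of the ATP synthase, by 0.71 ± 0.17 (adjusted p 0.00139).

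Of the 4 complex II genes 2 fell in marrow and 0 rose. Sdha went from 10.18, 10.12 and 10.23 in spleen to 9.44, 9.35 and 9.43 in marrow, without overlap (-0.77 ± 0.16 SE, adjusted p 0.000311), and Sdhb from 10.36, 10.21 and 10.37 to 9.79, 9.76 and 9.81 (-0.52 ± 0.14, adjusted p 0.00488). Cox7a2l fell by 0.73 ± 0.13 (adjusted p 8.57e-05) and Uqcrfs1 by 0.46 ± 0.17 (adjusted p 0.0388), the latter call lost without any 1 array (-0.49 to -0.42). Of the 21 core subunits 1 rose and 4 fell, and of the 52 accessory subunits 9 rose and 4 fell. Ndufc2 was 0.52 lower (adjusted p 0.0337), a call lost without any 1 array. In the same comparison 8 of 11 neutrophil granule genes rose and 1 fell, and 0 of 13 monocyte and macrophage genes rose and 11 fell. The summed granule levels were 63640 to 66590 in BALB/c spleen and 131400 to 133200 in marrow, and the monocyte and macrophage sums 33490 to 34820 and 8904 to 11070; their part was not tested.

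In culture 35 subunits rose and 4 fell with GM-CSF and IL-6 (median 0.38) and 36 rose and 7 fell with GM-CSF and G-CSF (median 0.36), each against fresh marrow. Over all genes 20.1% rose and 19% fell with IL-6 and 20.6% and 19.1% with G-CSF, with medians of 0.12 and 0.14. With housekeeping centring the counts turned to 10 rises and 16 falls (median 0.06) and to 6 rises and 20 falls (median 0.02), and over all genes 6.95% rose and 31.7% fell with IL-6 and 5.91% and 31.9% with G-CSF. The culture arrays were uneven. The mean deviation of the subunit genes was 0.364 on the wide IL-6 array and 0.026 and 0.009 on the narrow ones, beside -0.165 to -0.103 on the marrow arrays. Over all genes the mean deviation on these IL-6 arrays was 0.053, -0.010 and 0.003. With G-CSF the subunit genes were at 0.224 on the wide array and 0.005 and 0 on the narrow ones (all genes 0.031, 0.0002 and -0.0019). Where the lone wide array of a culture was fitted below, it is assumed to vary like the other groups. A fit of only the cultures and marrow called 16 subunits with IL-6 and 23 with G-CSF. The 2 cultures shared the marrow reference. Markers of cell types moved in the same comparisons. The 5 primary granule genes fell in both cultures, from summed linear levels of 28290 to 33520 in marrow to 4060 to 5403 with IL-6 and 2582 to 8146 with G-CSF. Of 8 dendritic cell genes 7 rose with IL-6 and 5 with G-CSF, from sums of 1328 to 1542 to sums of 11880 to 13270 and 3037 to 5881. Of 13 monocyte and macrophage genes 3 rose and 7 fell with IL-6 and 4 rose and 8 fell with G-CSF. Their part in the subunit differences was not tested.

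In complex V 9 of 17 genes rose with IL-6 and 11 with G-CSF, with 0 falls, and with housekeeping centring 4 rose and 2 fell and 3 rose and 1 fell. Atp5b was at 11.23, 11.25 and 11.17 in marrow, 12.20, 12.24 and 12.21 with IL-6 and 12.19, 12.21 and 12.33 with G-CSF. The 6 culture arrays (12.19 to 12.33) were above the 24 others of the series, the highest of which was at 11.95. The rises were 0.998 ± 0.19 (SE, adjusted p 0.000184) and 1.02 ± 0.19 (adjusted p 0.000138), and both calls held with housekeeping centring. Atp5g3 (12.06 to 12.27 on the 6 arrays, at most 12.04 on the 24 others) rose by 0.83 ± 0.10 (adjusted p 4.73e-07) and 0.71 ± 0.10 (adjusted p 4.05e-06). Atp5d, the delta subunit of the central stalk, went from 10.87, 10.62 and 10.78 to 11.87, 11.92 and 11.66 with IL-6 (1.06 ± 0.13, adjusted p 4.73e-07) and to 11.81, 11.35 and 11.64 with G-CSF (0.84 ± 0.13, adjusted p 1.31e-05; with housekeeping centring 0.51, not called). Atp5g1 rose by 1.11 ± 0.20 (adjusted p 7.58e-05) and 1.07 ± 0.20 (adjusted p 0.000111), while its weak second probe set gave -0.01 and -0.14.

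In complex I 10 genes rose and 3 fell with IL-6, and 9 rose and 5 fell with G-CSF, which turned to 3 and 11 and to 3 and 15 with housekeeping centring. Ndufa9 was at 9.08, 9.05 and 8.85 in marrow, 9.77, 9.77 and 10.20 with IL-6 and 9.66, 10.03 and 9.84 with G-CSF, without overlap (0.92 ± 0.16 SE, adjusted p 7.49e-05, and 0.85 ± 0.16, adjusted p 0.000189). Ndufb1 rose by 0.98 ± 0.18 (adjusted p 0.000101) and 1.02 ± 0.18 (adjusted p 6.45e-05). Ndufb8, an accessory membrane arm subunit, ran from 10.61 to 11.06 on the 6 culture arrays and from 9.61 to 10.41 on the 24 others, and it rose by 0.71 ± 0.12 (adjusted p 4.17e-05) and 0.45 ± 0.12 (adjusted p 0.00416). Ndufv3 fell, by 0.43 ± 0.12 with IL-6 (adjusted p 0.00898) and by 0.63 ± 0.12 with G-CSF (adjusted p 0.000264). Ndufb11, a membrane arm subunit encoded on the X chromosome, fell by 0.71 ± 0.16 with G-CSF (adjusted p 0.000743). Ndufb10 was at 9.27, 9.16 and 9.29 in marrow and 7.87, 9.30 and 8.22 with G-CSF, so that its called difference of -0.78 (adjusted p 0.0256) came from the narrow arrays. The call was lost without the first or the third G-CSF array (-0.48 and -0.65) or the first or the third marrow array (-0.76 and -0.75), and the wide G-CSF array alone gave 0.06.

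In complex IV 10 genes rose and 1 fell with IL-6, and 9 rose and 2 fell with G-CSF, which became 2 and 2 and 0 and 3 with housekeeping centring. Cox6a1 rose by 0.71 ± 0.11 (SE, adjusted p 1.03e-05) and 0.64 ± 0.11 (adjusted p 3.58e-05), and Cox5a, which binds the catalytic core, by 0.85 ± 0.13 (adjusted p 1e-05) and 0.50 ± 0.13 (adjusted p 0.00375). Cox6b1, the common form of subunit 6b, rose by 0.68 ± 0.13 (adjusted p 0.000169) and 0.45 ± 0.13 (adjusted p 0.00862). With housekeeping centring both Cox6a1 calls (0.39 and 0.31) and the Cox5a and Cox6b1 calls with G-CSF (0.16 and 0.11) were lost. Its relative Cox6b2 fell from 8.03, 7.89 and 8.36 in marrow to 4.67, 5.11 and 5.48 with IL-6 and 4.28, 4.47 and 4.05 with G-CSF. These were falls of 3.01 ± 0.23 (adjusted p 1.36e-10) and 3.83 ± 0.23 (adjusted p 1.27e-12), the widest of any subunit in the 14 comparisons. The Cox7c call with G-CSF (-0.81, adjusted p 0.034) was lost without the first or the third array of either group, with values of -0.85 to -0.49. Its narrow arrays stood at 4.48 and 5.04 and its wide array at 5.84.

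In the other complexes of the cultures, 5 of 8 complex III genes rose with each cytokine mix and 0 fell, while with housekeeping centring 1 rose and 1 fell with IL-6 and 0 rose and 1 fell with G-CSF. Uqcrfs1 rose by 0.56 ± 0.17 with IL-6 (SE, adjusted p 0.00984) and by 0.61 ± 0.17 with G-CSF (adjusted p 0.00563). Sdhb rose by 0.50 ± 0.14 (adjusted p 0.00689) and 0.60 ± 0.14 (adjusted p 0.0015), while Sdha was not called, at 0.28 and 0.30. With housekeeping centring the Uqcrfs1 differences were 0.24 and 0.27 and those of Sdhb 0.18 and 0.26, and none of these was called. Between the cultures 1 subunit was called, Cox7a2l, beside 0.824% rises and 0.418% falls over all genes. It was at 10.70, 10.39 and 10.50 with IL-6 and 10.02, 9.96 and 10.01 with G-CSF, without overlap (0.53 ± 0.13 SE, adjusted p 0.0417). The call was lost with housekeeping centring and without the first IL-6 array or any 1 G-CSF array (0.45 to 0.54).

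The alternative isoforms followed their own patterns. Ndufa4l2, a relative of Ndufa4 known as a target of hypoxia signalling, was at 5.60, 5.46 and 5.73 in C57BL/6 spleen and 5.93, 6.60 and 6.28 in EL-4 tumor (0.68 ± 0.22 SE, adjusted p 0.0241; with housekeeping centring 0.35, not called), and was not called in the other tumors against healthy spleen, at -0.08 to 0.28. Cox4i2, the lung isoform of subunit 4, was under the level filter in every group. It was at 4.87, 5.29 and 5.24 in marrow and 6.12, 5.92 and 5.08 with IL-6, where the narrow arrays were high and the wide array was not (0.57 ± 0.23, adjusted p 0.0498; -0.05 with the wide array alone). Cox6a2, the muscle form of subunit 6a, was higher in EL-4 tumor by 0.54 ± 0.18 (adjusted p 0.024) and in MCA203 tumor by 0.65 ± 0.18 (adjusted p 0.00637), calls that were lost with housekeeping centring (0.21 and 0.40). Cox8c, the testis form of subunit 8, was at 7.02, 7.23 and 7.15 in marrow and 8.20, 7.05 and 8.29 with G-CSF, again high only on the narrow arrays (0.71 ± 0.26, adjusted p 0.0325; -0.08 with the wide array alone).

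Other genes of mitochondrial metabolism were counted from lists made for this purpose. From C26-GM to 4T1 tumor 35 of 76 mitochondrial ribosome genes rose and 1 fell (median 0.45), 12 of 18 citric acid cycle genes rose and 0 fell (median 0.74), 13 of 18 import and carrier genes rose and 0 fell, and 16 of 44 assembly factors rose and 2 fell. Idh3a, a subunit of isocitrate dehydrogenase, rose by 1.25 ± 0.23 (SE, adjusted p 0.000144), Slc25a4, an ADP/ATP carrier, by 1.40 ± 0.17 (adjusted p 3.03e-07), and Bcs1l, which inserts the Rieske protein into complex III, by 1.21 ± 0.20 (adjusted p 2.81e-05). These lists and the subunit genes lay on the same side in that comparison, beside 19.5% rises over all genes.

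In fresh marrow against BALB/c spleen, where 13.8% of all genes rose and 15.1% fell, 4 mitochondrial ribosome genes rose and 20 fell (median -0.26; 12 and 20 with housekeeping centring), 1 assembly factor rose and 11 fell (3 and 13), 1 import and carrier gene rose and 9 fell (4 and 7), and 2 citric acid cycle genes rose and 5 fell (2 and 5). The difference between these lists and the subunits was not tested. Ndufaf4, an assembly factor of complex I, was lower in marrow by 1.80 ± 0.23 (SE, adjusted p 4.31e-07), and Slc25a4 by 2.00 ± 0.17 (adjusted p 4.04e-10). In the IL-6 culture Slc25a4 rose by 2.88 ± 0.17 (adjusted p 5.81e-13) and Ppargc1b, a coactivator of mitochondrial genes, by 1.87 ± 0.28 (adjusted p 9.81e-06), from 4.76 to 5.11 in marrow to 6.65 to 7.17. Of the 19 biogenesis regulators and genes of mitochondrial DNA expression, the list that holds it, 4 rose and 5 fell with IL-6 (median -0.09; 3 and 9 with housekeeping centring). Its relative Ppargc1a lay between 2.76 and 3.84 on all arrays. With IL-6 36 of 76 mitochondrial ribosome genes rose and 2 fell, and with G-CSF 39 and 2, beside rises of 20.1% and 20.6% over all genes. With housekeeping centring these were 24 and 14 and 28 and 16, beside 6.95% rises and 31.7% falls, and 5.91% and 31.9%, over all genes.

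Most glycolysis and hypoxia genes rose in the 4 tumor infiltrates, under both scalings. Of 18 glycolysis genes 14 rose and 1 fell in C26-GM tumor against BALB/c spleen, 15 and 1 in 4T1 tumor, 14 and 1 in EL-4 tumor, and 13 and 2 in MCA203 tumor. Of 14 hypoxia genes 9 rose and 1 fell in C26-GM tumor, and 14, 13 and 11 rose in 4T1, EL-4 and MCA203 tumor. Over all genes 12.7% rose in C26-GM tumor, 14.2% in 4T1, 15.2% in EL-4 and 13.2% in MCA203 tumor. Falls were 14.9%, 11.2%, 9.93% and 10.7% in the same order. Between C26-GM spleen and C26-GM tumor 10 glycolysis and 7 hypoxia genes rose and 0 fell, where 0 subunits rose and 16 fell (all genes 5.63% and 8.55%). With housekeeping centring 2 subunits rose and 12 fell, and none was called in a fit of these arrays alone. Slc2a1, a glucose transporter, rose from C26-GM spleen to tumor by 2.50 ± 0.30 (SE, adjusted p 1.07e-06). Of 17 cell cycle genes 0 rose and 12 fell in that comparison, and 15 rose from C26-GM to 4T1 tumor (all genes 19.5% rises).

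**Figure D5:**
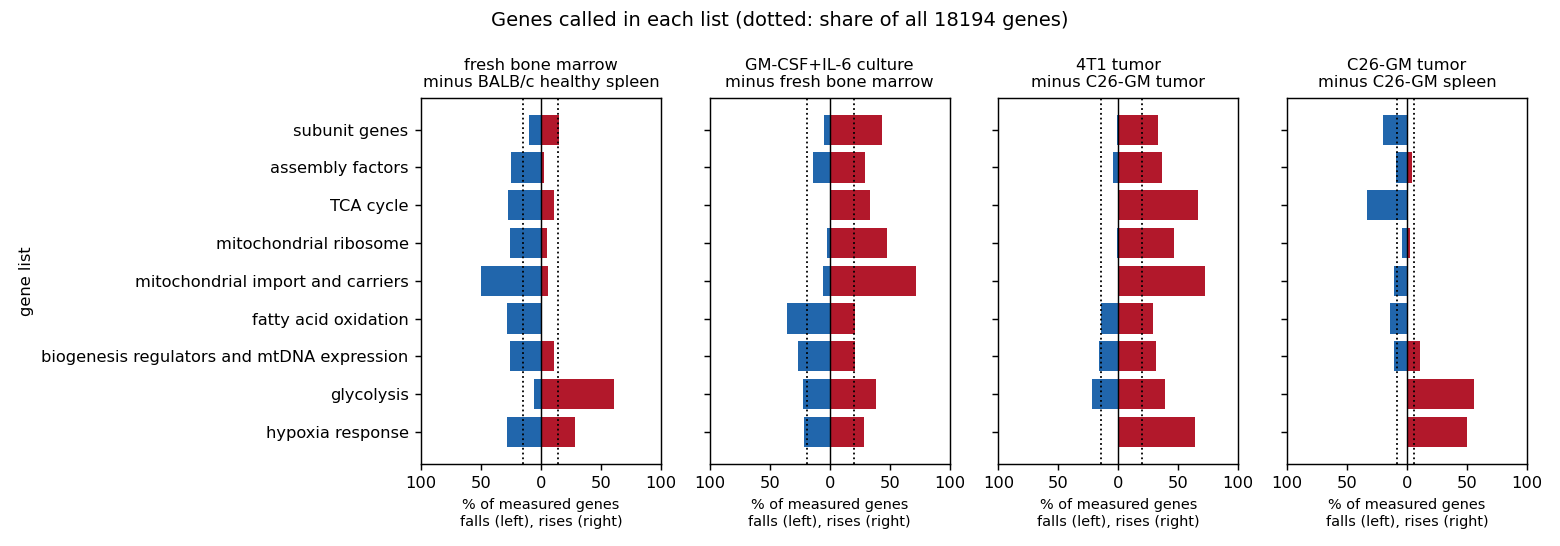
Share of each gene list called as rising (right) or falling (left) in 4 comparisons on the deposited scale, with the shares of all 18194 genes as dotted lines. From C26-GM to 4T1 tumor 27 of 81 subunit genes rise (26 with housekeeping centring). From C26-GM spleen to tumor 10 of 18 glycolysis genes rise and 16 of 81 subunit genes fall (0 in a fit of these 6 arrays alone, and 6 without the second C26-GM spleen array), and in fresh marrow 20 of 76 mitochondrial ribosome genes fall.

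Markers of cell types, myeloid ones included, also differed between the tumors and the healthy spleens. Of 13 monocyte and macrophage genes 7 rose and 2 fell in 4T1 tumor, 6 and 3 in EL-4 tumor, and 7 and 2 in MCA203 tumor, and 1 rose and 10 fell in C26-GM tumor. Of 11 neutrophil granule genes 0 rose and 8, 10 and 11 fell in 4T1, EL-4 and MCA203 tumor, with summed levels of 2766 to 4511 in EL-4 tumor and 2060 to 2835 in MCA203 tumor. Of 8 epithelial genes 7, 7 and 3 rose, and in EL-4 tumor their sums ran from 743.7 to 11170 between replicates. Of 10 T cell genes 8 rose in EL-4 tumor and 7 in MCA203 tumor, and 7 or 8 of 8 B cell genes fell in each of the 4 tumors. The part of these cells in the subunit levels was not tested.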

How the data were processed

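RNA of CD11b+ cells from 30 samples was measured on Affymetrix MOE430 2.0 arrays, 3 per group in 10 groups. The deposited values are log2 expression per probe set that the authors made with RMA, per the submitters' processing notes, whose version was not given in the sources used here. Their minimum of 1.68 to 1.90 and median of 4.85 to 5.15 per array lie on a log2 scale, and they were used as deposited. The number of arrays limits the precision, and no signal over background is known from these values.

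Of 45101 probe sets 34958 had 1 gene symbol in the platform annotation, 932 several and 9211 none. Each of 18194 genes was read by its 1-symbol probe set with the highest mean over 30 arrays; 18146 symbols, and all 81 subunit symbols, were found in RefSeq. limma 3.58.1 (R 4.3.3) was fitted to all genes and all 10 groups together, with 14 comparisons, 20 residual degrees of freedom and a prior of 5.92. A gene was called at a Benjamini-Hochberg adjusted p under 0.05 over all genes of a comparison. The script was tested on simulated data. Figures were drawn with matplotlib 3.10.9 in Python 3.11.15.

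Named genes were up to 5 called members with the largest rises and up to 5 with the largest falls in each comparison, a fixed panel of catalytic subunits and isoforms, and up to 3 called genes of each other list. The members, lists, roles and comparisons were chosen with earlier results of these data known. Alternatives were housekeeping centring, quantile normalisation again, the mean of all probe sets, only probe sets without cross-hybridising suffixes, leaving out low genes, a fit of the compared groups alone, array weights, a trended robust prior, a 2-fold minimum, the replicate number as a block, and leaving out each array. Leaving out the third C26-GM arrays together was planned too, and splitting the culture arrays by their spread was added after seeing the data. Sequences came from RefSeq tables of GRCm38.p6, and genes with no window there are only named. The mitochondrially encoded subunits were not analysed here.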

Additional observations from a re-analysis of the deposited data

Results flagged for a closer look

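In 3 of the 81 subunit genes the mean effect of the C57BL/6 tumors differed from that of the BALB/c tumors. The difference itself was tested, in limma's fit over all 18194 genes. Over all genes the effect was higher in the C57BL/6 tumors for 4.68% and lower for 3.17%. Strain and tumor line cannot be told apart in these differences, and each effect also compares tumor with spleen. The low Xist of the C26-GM arrays (5.15 to 6.47, and 10.06 to 11.12 outside C26-GM) cannot be told apart from the C26-GM line either. Sdhb had mean effects of 0.59 in the C57BL/6 tumors and -0.10 in the BALB/c tumors, each against healthy spleen of the strain, a difference of 0.69 ± 0.17 (SE, adjusted p 0.00952). Ndufa9 had effects of 0.66 and -0.01, a difference of 0.67 ± 0.20 (adjusted p 0.0355). Ndufb1 had effects of -0.01 and 0.76, a difference of -0.77 ± 0.22 (adjusted p 0.0262). Without the second C57BL/6 spleen array the Sdhb difference was 0.55 and no longer called. The Ndufa9 call was lost without any 1 of 11 arrays (0.59 to 0.71), and the Ndufb1 call without any BALB/c spleen array or the first or second C57BL/6 spleen array (-0.80 to -0.66). Each BALB/c effect is a mean over unlike tumors: the differences in C26-GM and 4T1 tumor were -0.44 and 0.25 for Sdhb, -0.50 and 0.49 for Ndufa9, and 1.28 and 0.23 for Ndufb1.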

How the results depend on the processing

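Of the counts of called subunits, taken without regard to direction, 161 stayed within 1.5 times the reported one under an alternative and 89 moved, and of the medians 150 stayed and 30 moved. In some comparisons housekeeping centring changed the balance of rises and falls more than their total. EL-4 tumor went from 31 and 4 to 12 and 13, C26-GM spleen from 17 and 0 to 6 and 6, and the IL-6 culture from 35 and 4 to 10 and 16. In 4T1 and MCA203 tumor the total fell and rises still prevailed, at 13 and 3 and at 17 and 5. With G-CSF both changed, to 6 and 20. With housekeeping centring the medians were 0.0020 in C26-GM spleen, -0.085 in C26-GM tumor, 0.091 in 4T1 tumor, -0.014 in EL-4 tumor and 0.13 in MCA203 tumor against healthy spleen, 0.19 for 4T1 against C26-GM tumor, -0.17 for EL-4 against MCA203 tumor, -0.077 between the healthy spleens, 0.20 in marrow, 0.059 with IL-6, 0.025 with G-CSF and 0.0088 for the strain difference. The counts that moved were 16 in 4T1 tumor, 22 in MCA203 tumor, 13 for EL-4 against MCA203 tumor, 1 between the spleens, 26 with G-CSF and 6 for the strain difference.

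Quantile normalisation again gave 26 called subunits in C26-GM spleen, 14 for EL-4 against MCA203 tumor, 1 between the spleens and 14 for the strain difference, and medians of 0.15 in C26-GM tumor, 0.21 for 4T1 against C26-GM tumor, 0.13 in marrow and 0.46 with G-CSF. A fit of the compared groups alone gave 47 in 4T1 tumor, 0 for C26-GM tumor against C26-GM spleen, 14 for EL-4 against MCA203 tumor, 2 between the spleens, 38 in marrow, 16 and 23 in the IL-6 and G-CSF cultures, 0 between them and 12 for the strain difference. Array weights, whose estimation gave a convergence warning, called more: 47 in C26-GM spleen, 56 in 4T1 tumor, 54 in EL-4 tumor, 40 for C26-GM tumor against C26-GM spleen, 51 for 4T1 against C26-GM tumor, 27 for EL-4 against MCA203 tumor, 10 between the spleens, 47 in marrow, 65 with IL-6, 2 between the cultures and 20 for the strain difference. The cause was not tested.

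A minimum of 2-fold, a stricter rule by construction, left 1 subunit in C26-GM spleen, 2 each in C26-GM, 4T1 and EL-4 tumor, 4 in MCA203 tumor, 1 for C26-GM tumor against C26-GM spleen, 4 for 4T1 against C26-GM tumor, 0 for EL-4 against MCA203 tumor, 2 in marrow, 3 with IL-6, 4 with G-CSF, 0 between the cultures and 0 for the strain difference. The mean of all probe sets gave medians of 0.25 in 4T1 tumor, 0.18 for 4T1 against C26-GM tumor, 0.12 in marrow and 0.26 with G-CSF, and counts of 2 between the spleens and 6 for the strain difference. Without cross-hybridising probe sets the counts were 11 in C26-GM spleen, 3 for EL-4 against MCA203 tumor, 1 between the spleens, 12 in marrow and 0 between the cultures, and the medians 0.27 in 4T1 tumor, 0.20 for 4T1 against C26-GM tumor and 0.15 in marrow. That choice moved some genes to a weaker probe set and turned Ndufb2 in C26-GM spleen to -0.18, Atp5g1 to -0.012 with IL-6 and -0.14 with G-CSF, and Cox5b to -0.091 in 4T1 tumor, -0.38 with IL-6 and -0.37 with G-CSF. Leaving out low genes gave 2 between the cultures and 7 for the strain difference, and a trended robust prior 2 and 6.

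Without the third arrays of both C26-GM groups 15 subunits were called in C26-GM tumor against healthy spleen, 8 against C26-GM spleen and 6 for the strain difference. The wide culture arrays alone gave medians of 0.57 with IL-6 and 0.46 with G-CSF and 0 calls between the cultures; with the array set as a term, chosen after seeing the data, the G-CSF median was 0.51 and 3 subunits were called between the cultures. These settings turned Ndufb10 with G-CSF to 0.059 and 0.075, Cox4i2 with IL-6 to -0.050 and -0.081, and Cox8c with G-CSF to -0.08 and -0.11.

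Leaving out each array in turn gave counts of 5 to 22 in C26-GM spleen, 16 to 28 in C26-GM tumor (median 0.051 to 0.11), 16 to 18 in 4T1 tumor, 22 to 30 in EL-4 tumor and 22 to 32 in MCA203 tumor. They were 6 to 18 for C26-GM tumor against C26-GM spleen, 4 to 5 for EL-4 against MCA203 tumor, 12 to 15 in marrow, 0 to 2 between the cultures and 0 to 6 for the strain difference, and the median for 4T1 against C26-GM tumor was 0.20 to 0.27. Arrays of different groups with the same replicate number correlated in their deviations from the group means by -0.85 to 0.79 (135 pairs, median 0.0068). Those with other numbers correlated by -0.86 to 0.92 (270 pairs, median -0.0042), and 11 of 30 arrays correlated best with their own number. These pairs pool all groups, so a pairing within particular groups, such as C26-GM spleen and tumor, cannot be judged from them. With the replicate number as a block 25 subunits were called in 4T1 tumor, 34 in EL-4 tumor, 34 in MCA203 tumor, 28 for 4T1 against C26-GM tumor and 37 with IL-6, and no count moved by 1.5 times. With 3 arrays a group the number of arrays limits the precision, and no signal over background is known.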
